A study of Homo sapiens with 7 samples.

Results

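Binding of the transcription factor Myc was examined at 9 genes that encode enzymes leading from acetyl-CoA through mevalonate to squalene and its epoxide: ACAT2, HMGCS1, MVK, PMVK, MVD, IDI1, FDPS, FDFT1 and SQLE. They are 9 of 20033 protein-coding genes on the nuclear chromosomes, and they were taken by their place in the pathway. A peak was assigned to a gene when its summit lay inside the annotated span or within 20 kb of it, which gave 39 of 47016 peaks. All 9 genes had at least 1 peak by this rule, as did 79.7% of all coding genes. The cells were HT29, an established line of human colon adenocarcinoma, grown in McCoy's medium with serum and then exposed for 6 h to oleic acid, the main monounsaturated fat of olive oil, with no serum. By their titles, 3 CUT&RUN libraries carry the name of Myc, 3 were IgG controls and 1 was an input, and all of them came from cells given the fatty acid. In CUT&RUN, an antibody directs a nuclease to the chromatin that carries its target, and the released fragments are sequenced. The labels name the Myc antibody for the IgG libraries as well. The values are those of 1 deposited peak list without values per library, so no spread between replicates and no test over samples could be had, and any change caused by oleic acid was not measured here.

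The pathway begins with thiolase and synthase steps that build HMG-CoA from acetyl-CoA. HMG-CoA is then reduced to mevalonate. Kinases and a decarboxylase turn mevalonate into isopentenyl diphosphate, whose units are joined into farnesyl diphosphate, the branch point towards sterols, dolichol, ubiquinone and prenylated proteins. Transcription of these genes is known to rise when cells lack sterol, through SREBP-2, often together with the factors NF-Y and Sp1. Myc acts as a dimer with MAX and prefers the E-box, and it is known for binding near the starts of a large share of active genes.

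Myc peaks stood at the starts of 8 of the 9 genes (88.9%), against 58.2% of all protein-coding genes. A start peak is a peak whose summit lies within 1 kb of an annotated 5′ start. For ACAT2, FDFT1 and SQLE the tables used here give no strand, and a summit within 1 kb of either end of the span was counted instead. The same was done for every other gene without a strand. With a start, 6 of 6 members had a peak, against 61.3% of genes with a known strand. Without one, 2 of 3 members had a peak, against 46.8% of genes without a strand. Shares this far apart in so few genes carry wide uncertainty, and no test of the list was made.

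The start peaks of these genes were also strong. Strength is the authors' fold enrichment, a ratio of Myc to control signal at the summit, and the interval given with it is an exact Poisson 95% interval of the fragment pileup that covers counting error only. The median fold over the 8 genes was 14.4, with a range of 5.86 to 22.5, against a median of 7.92 over the 11665 genes with a start peak. The quartiles of those genes were 5.57 and 11.1. Of the 9 members, 6 had a start peak with a fold of 10 or more (66.7%), against 19.0% of all protein-coding genes. Only HMGCS1, MVD and FDFT1 did not.

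**Figure D1:**
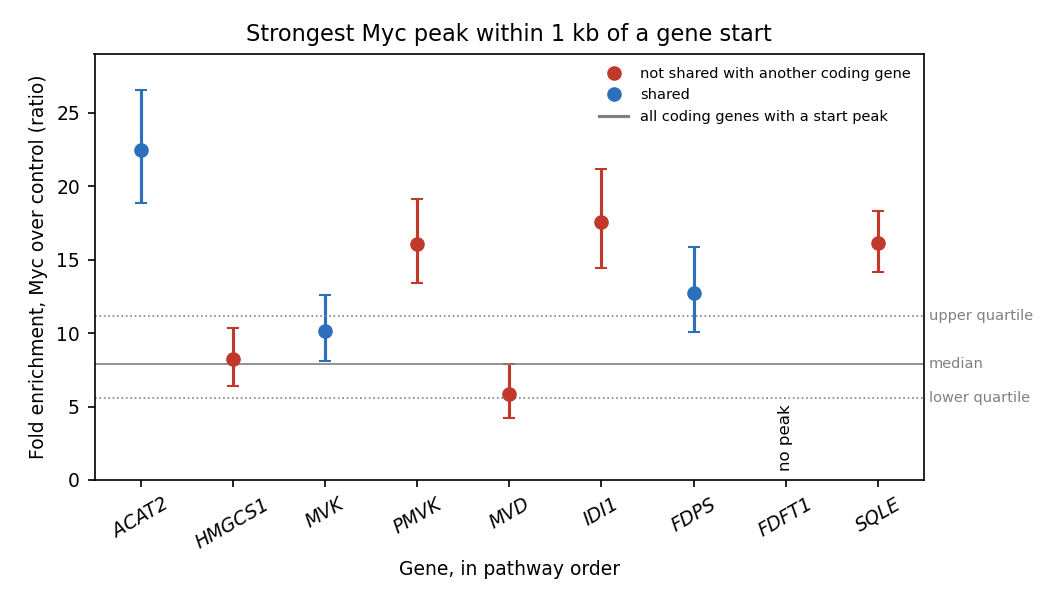
Fold enrichment (ratio of Myc to control) of the strongest start peak at each gene, in pathway order, with exact Poisson 95% intervals of the pileup; blue points are peaks also within 1 kb of another coding gene, and grey lines give the quartiles over 11665 coding genes with a start peak. ACAT2 stands highest at 22.5, MVD lowest at 5.86, and FDFT1 has no summit within 1 kb of an end of its span.

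ACAT2 encodes the cytosolic thiolase that condenses acetyl-CoA into acetoacetyl-CoA, and it had the strongest start peak of the group. Its summit on chromosome 6 lay at 159762182, 137 bp inside the lower end of the span (159762045 to 159779112, GRCh38). The fold was 22.5 (18.9 to 26.6), from 136 overlapping fragments over a control level of 5.09. That is the lowest level of the whole peak list, and it recurs at many peaks, among them the start peak of IDI1 and the strongest FDFT1 peak. It thus reads as a floor, and whether the control signal at these summits was lower cannot be told. By fold ACAT2 ranked 201 of the 11665 coding genes with a start peak. The same summit lay 99 bp from the 5′ end of SOD2, the gene of the mitochondrial superoxide dismutase, on the minus strand. It was also inside the non-coding gene SOD2-OT1, 150 bp from its end, so it cannot be given to any of these genes alone. A further peak lay 10968 bp beyond the higher end of ACAT2, with a fold of 12.0 (9.67 to 14.7). It was within 1 kb of the starts of TCP1 and MRPL18, which encode a chaperonin subunit and a mitochondrial ribosomal protein.

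HMGCS1 encodes the cytosolic HMG-CoA synthase and stood near the middle of all genes. The summit at 43313647 on chromosome 5 lay 235 bp upstream of the 5′ end of the gene (43287470 to 43313412, minus strand). Its fold was 8.21 (6.41 to 10.4), from 69 fragments over a control level of 7.53, and 52.3% of genes with a start peak had a lower one. The peak was broad, at 3566 bp. Weaker peaks lay 7083 bp inside the gene from its 5′ end, with a fold of 3.98, and 8052 bp beyond its 3′ end, with a fold of 2.95.

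The mevalonate kinase genes differed in strength. MVK encodes the enzyme that phosphorylates mevalonate, and its start peak was the single peak found within 20 kb of the gene. On chromosome 12 the summit at 109573415 lay 143 bp inside the 5′ end of the span (109573272 to 109598125, plus strand), with a fold of 10.2 (8.07 to 12.6) from 79 fragments. MMAB, which encodes an enzyme of cobalamin metabolism, begins 89 bp away on the opposite strand and shares the peak. PMVK, the gene of phosphomevalonate kinase, had a fold of 16.1 (13.4 to 19.1) from 124 fragments, and its interval lay above that of MVK.

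At PMVK the position of the peak depended on which start was taken. The span on chromosome 1 runs from 154924740 to 154942658 on the minus strand, and the summit at 154936799 lay 5859 bp inside its 5′ end but 80 bp upstream of the other annotated start, at 154936719. By the ends of the span alone, PMVK had no peak, and 7 of the 9 members had one, against 56.4% of all coding genes. A peak 4617 bp downstream of that start had a fold of 7.32 (5.56 to 9.47). Peaks at 13299 and 18693 bp upstream of the span had folds of 7.25 and 7.55 and lay at PBXIP1 and PYGO2, neighbouring genes.

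MVD, the gene of the decarboxylase that yields isopentenyl diphosphate, had the weakest start peak of the 8. The summit at 88663361 on chromosome 16 lay 270 bp upstream of the 5′ end (span 88651940 to 88663091, minus strand) and 12 bp from the end of the non-coding gene SNAI3-AS1. Its fold was 5.86 (4.23 to 7.93), from 40 fragments over a control level of 6.00, and 28.2% of genes with a start peak had a lower one. Another peak of similar fold, 6.23 (4.59 to 8.26), lay 665 bp beyond the 3′ end of MVD and 222 bp from the 5′ end of CYBA, an NADPH oxidase subunit gene. The intervals of these 2 peaks overlapped.

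IDI1 encodes the isomerase that converts isopentenyl to dimethylallyl diphosphate, and it carried a peak at separate starts. The stronger summit, at 1049235 on chromosome 10, lay 116 bp upstream of a start inside the span (1039152 to 1056704, minus strand). It had a fold of 17.6 (14.4 to 21.2) from 106 fragments and was 2892 bp wide. The other, at 1056554, lay 150 bp inside the 5′ end of the span with a fold of 9.68 (7.39 to 12.5), and 169 bp from the 5′ end of WDR37 on the opposite strand. The intervals did not overlap, so the inner site was the stronger by more than counting error, and it was not near an end of any other coding gene. The neighbouring gene IDI2, which encodes a related isomerase, had no start peak, and the nearest summit was 10807 bp from its start.

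FDPS encodes farnesyl diphosphate synthase, which makes the last intermediate shared by sterols and other isoprenoids. Its start peak on chromosome 1, at 155308987, lay 121 bp inside the gene (155308866 to 155320665, plus strand). The fold was 12.7 (10.1 to 15.8), from 78 fragments over a control level of 5.21. The summit also lay 333 bp from the 5′ end of PKLR, the liver and red cell pyruvate kinase gene. The strongest site within 20 kb of FDPS was not at its start but 3463 bp beyond its 3′ end, with a fold of 16.9 (13.8 to 20.5), and it lay 191 bp from an annotated start inside the neighbouring gene RUSC1. The intervals of these 2 sites overlapped.

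**Figure D2:**
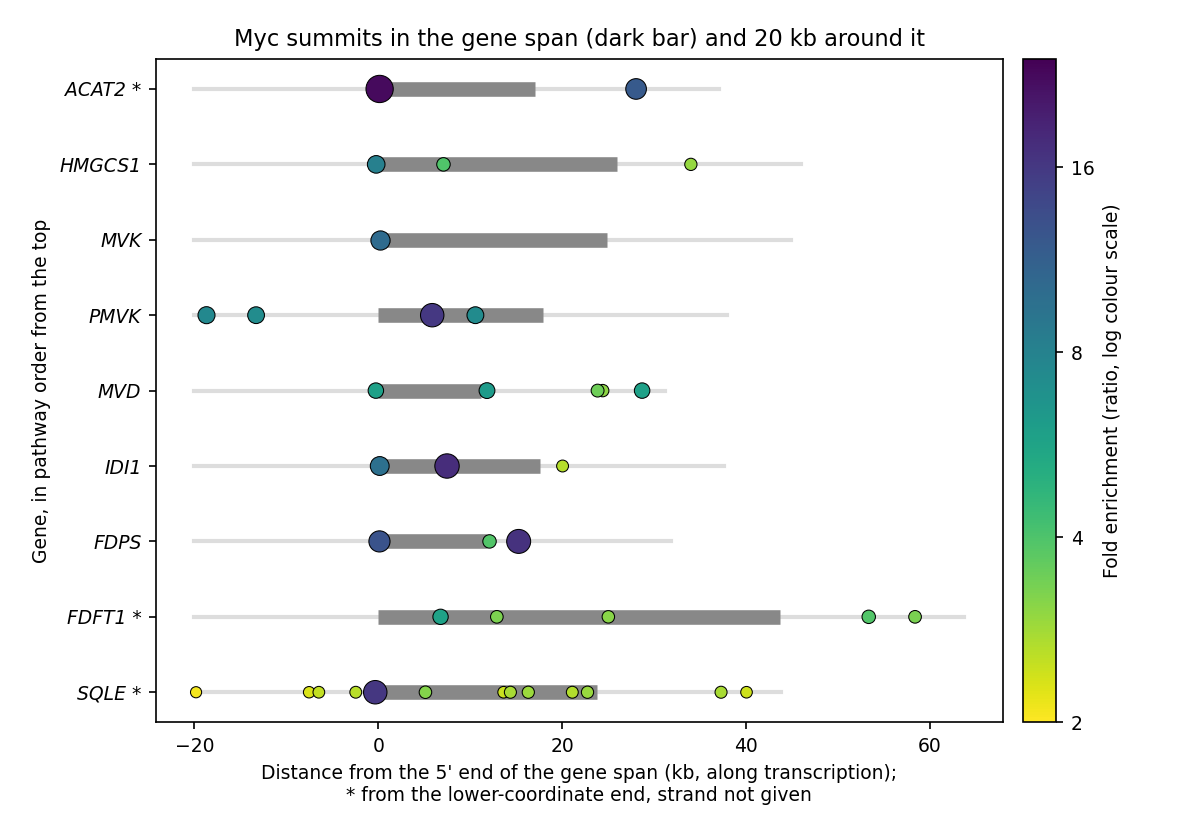
Position of the 39 summits along each gene, in kb from the 5′ end of the span in the direction of transcription, or from the lower-coordinate end where the strand was not given (asterisk); dark bars are gene spans, light bars the 20 kb around them, and colour and size give the fold (ratio, log colour scale). The strongest point lies at the left end of the span at ACAT2, HMGCS1, MVK and SQLE, inside it at PMVK, IDI1 and FDFT1, and beyond its far end at MVD and FDPS.

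FDFT1, the gene of squalene synthase, was the member without a start peak as counted here, by the ends of its span. No summit lay within 1 kb of either end of its span on chromosome 8 (11795582 to 11839298). The strongest of its 5 peaks, at 11802348, lay 6766 bp above the lower end with a fold of 5.74 (4.03 to 7.96), from 34 fragments over a control level of 5.09. Starts inside the span were not known here for this gene, so this peak could not be placed against one. It may lie at such a start, and FDFT1 cannot be said to lack a start peak. The PMVK summit, 5859 bp inside its span, was counted only through a listed inner start. The other 4 peaks had folds of 3.12 to 3.94. This was a region of few peaks, with 8 summits in the span and 500 kb around it, or 7.66 per Mb, against 15.4 per Mb over all chromosomes. The region of ACAT2, the member with the strongest start peak, was similarly sparse, at 8.85 per Mb.

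SQLE encodes squalene epoxidase, which catalyses the step after squalene, and its locus carried the most fragments and the most peaks. The summit on chromosome 8 was at 124998168, just 337 bp outside the lower-coordinate end of SQLE (124998505 to 125022283). It lay inside the non-coding gene SQLE-DT and 30 bp from its end. The pileup there was 237 fragments, the highest of the 39 peaks, but the control level of 13.8 was also the highest, which gave a fold of 16.1 (14.2 to 18.3), like that of PMVK. The peak was 4858 bp wide, against a median of 1542 bp for start peaks of all genes. Its −log10 q, given by the authors, was 194, against 136 at ACAT2, the gene with the higher fold.

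The other 12 peaks around SQLE were all weak. Their folds ranged from 2.09 to 3.16, with pileups of 23 to 33 fragments. Of all coding genes, 2.13% had 13 or more peaks by the same rule, and the median was 2. Control levels at the 13 SQLE peaks ran from 8.75 to 13.8, and those at the 26 peaks of the other members from 5.09 to 7.53, so the ranges did not overlap. The segment around SQLE held 173 summits within 500 kb, or 169 per Mb, with a median control level of 9.85 and a median fold of 2.70, against 7.66 to 61.3 summits per Mb and median control levels of 5.09 to 6.07 around the other 8 genes. The part of this raised local level in the number of weak peaks was not tested. At a −log10 q of at least 10, SQLE kept 1 peak, the one at its start.

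**Figure D3:**
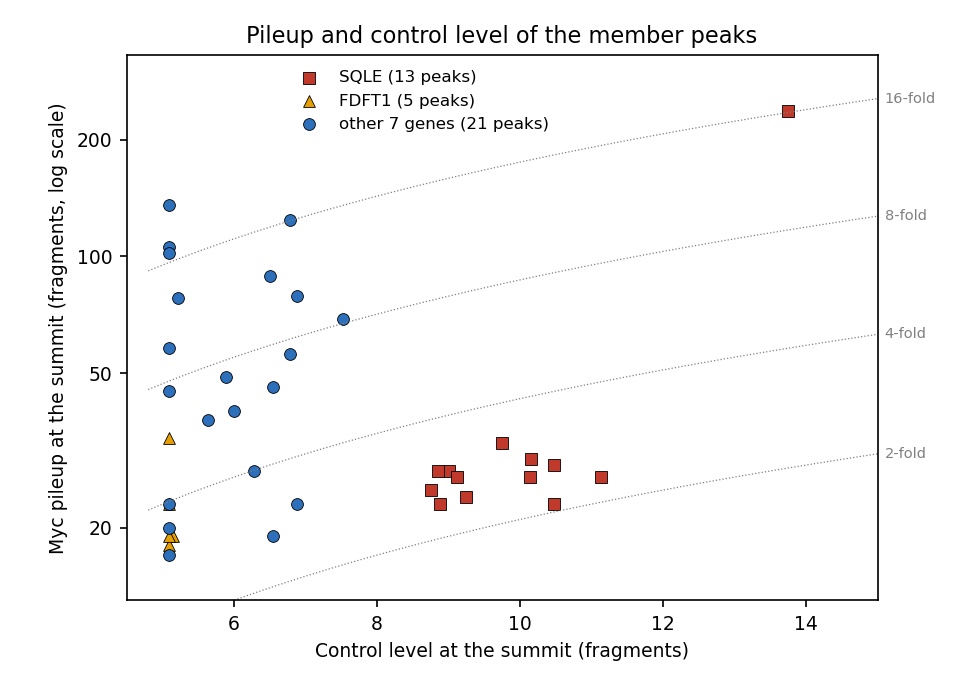
Myc pileup (fragments at the summit, log scale) against the control level at the summit (fragments) for the 39 peaks, with dotted lines of equal fold. SQLE peaks (red squares) lie to the right of all others, at control levels of 8.75 to 13.8, FDFT1 peaks (orange triangles) lie at 34 fragments or fewer, and the SQLE start peak stands alone at 237 fragments.

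Between the members, the order of start folds ran from ACAT2 through IDI1, SQLE, PMVK, FDPS, MVK and HMGCS1 to MVD. The interval of each gene overlapped that of the next in this order. Overlap does not show that neighbours were equal, and their differences were not tested. ACAT2 overlapped IDI1 and PMVK and lay above the other 5. By pileup alone SQLE came before ACAT2, so the top of the order depended on the control level. Among steps next to each other in the pathway, the intervals did not overlap between ACAT2 and HMGCS1, at 22.5 and 8.21. Nor did they between MVK and PMVK, at 10.2 and 16.1, PMVK and MVD, at 16.1 and 5.86, or MVD and IDI1, at 5.86 and 17.6. Those of IDI1 and FDPS, at 17.6 and 12.7, did overlap.

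The summits sat close to the starts, at 80 to 337 bp with a median of 140 bp, against 207 bp over all genes with a start peak. The start peaks of 4 members were at least 2 kb wide, those of ACAT2, HMGCS1, IDI1 and SQLE, against 30.1% of genes with a start peak. In 3 of the 8 the peak was shared with another coding gene, against 27.8% of genes with a start peak. Those were ACAT2 with SOD2, MVK with MMAB and FDPS with PKLR. The 31 peaks that were not the start peak of a member had a median fold of 3.16, and 22 of them lay below 4.11, the median of all peaks. Of the 6 with a fold of 7 or more, 4 lay at a start or an end of another coding gene outside the member's span.

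Promoter sequences were read for the 6 members with an entry in the RefSeq table (GRCh38.p14), 9 windows from 250 bases before to 50 after a start. Those of ACAT2, FDFT1 and SQLE were not used here. The windows below are of the strongest start peaks with a known start (IDI1 and PMVK), of the single window with the most CCAAT boxes (MVK) and of the weakest start peak (MVD). They are given 5′ to 3′ on the strand of the gene, at chr10:1049070-1049369 (minus), chr1:154936670-154936969 (minus), chr12:109573544-109573843 (plus) and chr16:88663042-88663341 (minus). Capitals mark CCAAT, the box read by NF-Y, CACGCG, a variant of the E-box, and CACCCCA, a part of a known sterol element, each in either orientation. The nearest summit lay inside the window of IDI1 and PMVK, and outside that of MVK and MVD. For MVK the window is of an annotated start inside the span, at 109573794, which lay 379 bp from the summit, and for MVD the start of the window lay 270 bp from it.
IDI1: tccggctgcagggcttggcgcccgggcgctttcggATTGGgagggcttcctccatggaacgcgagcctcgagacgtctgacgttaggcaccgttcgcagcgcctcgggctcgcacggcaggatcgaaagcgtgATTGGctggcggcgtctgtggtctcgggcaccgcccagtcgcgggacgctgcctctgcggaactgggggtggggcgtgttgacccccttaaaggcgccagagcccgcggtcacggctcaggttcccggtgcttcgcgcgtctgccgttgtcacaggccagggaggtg
PMVK: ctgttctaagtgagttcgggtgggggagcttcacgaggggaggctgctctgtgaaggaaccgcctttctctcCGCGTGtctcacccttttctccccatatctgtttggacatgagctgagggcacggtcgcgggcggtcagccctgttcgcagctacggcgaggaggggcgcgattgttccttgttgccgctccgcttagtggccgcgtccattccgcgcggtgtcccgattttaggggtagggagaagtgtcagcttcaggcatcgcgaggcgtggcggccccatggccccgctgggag
MVK: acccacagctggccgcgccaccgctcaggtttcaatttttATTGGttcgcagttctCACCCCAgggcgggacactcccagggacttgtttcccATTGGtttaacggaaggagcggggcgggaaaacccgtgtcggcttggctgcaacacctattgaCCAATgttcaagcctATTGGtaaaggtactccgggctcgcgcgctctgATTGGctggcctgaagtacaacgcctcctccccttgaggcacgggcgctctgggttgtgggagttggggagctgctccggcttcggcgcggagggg
MVD: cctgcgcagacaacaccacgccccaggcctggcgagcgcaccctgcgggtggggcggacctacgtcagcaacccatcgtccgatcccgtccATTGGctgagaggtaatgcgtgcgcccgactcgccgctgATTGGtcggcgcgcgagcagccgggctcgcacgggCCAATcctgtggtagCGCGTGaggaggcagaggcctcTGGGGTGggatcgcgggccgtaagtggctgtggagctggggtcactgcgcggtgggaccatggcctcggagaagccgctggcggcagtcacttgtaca

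None of the 9 windows held CACGTG, the E-box that Myc and MAX prefer, which 7.23% of 34943 promoters in the table hold and 9.71% of those with a summit within 1 kb. The variant CACGCG was in PMVK, 178 bases before the start, and in MVD, 70 bases before it, against 11.4% of all promoters. The share was 18.3% in promoters with a summit within 1 kb, as every member window has. CATGTG and CATGCG, searched on both strands like the rest, were in no member window, against 11.1% and 7.02% of all. With a summit within 1 kb, the shares were 6.96% and 10.3%. The 300 bases shown are narrower than any of these peaks, so a motif elsewhere under a peak would not have been seen.

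CCAAT boxes were in 6 of the 9 windows, against 34.6% of all promoters. By gene they were in a window of 5 of the 6, the exception being PMVK, but HMGCS1 and IDI1 have more than 1 window. The share was 34.9% in promoters with a summit within 1 kb, against 34.5% in those without. The MVK window had 5 of them, at 210, 157, 94, 79 and 46 bases before its start at 109573794, a number that 0.361% of promoters reach. The windows of MVD and FDPS had 3 each. IDI1 had 3 matches in the window of its start at 1048886, but those at 132 and 129 bases before it overlap, on opposite strands. It had 2 in the window of its start at 1049119, at other positions. Over all its windows IDI1 thus had fewer separate boxes than MVK. CACCCCA was in MVK and MVD, against 8.07% of promoters and 7.68% of those with a summit within 1 kb. GGGCGG, the GC box read by Sp1, was in all 9 windows, against 44.9% of promoters and 69.3% of those with a summit within 1 kb. The member windows were 60.7 to 74.3% G and C, against a median of 58.7%, and short GC-rich words are more frequent in such sequence.

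Beyond squalene, all 12 genes of cholesterol synthesis had a start peak, against 58.2% of all coding genes. Their median fold was 8.83, and CYP51A1, lanosterol demethylase, led at 14.8 (12.2 to 17.7). In the isoprenoid branch all 11 genes had one, with a median of 8.06 and FNTB, a subunit of farnesyltransferase, highest at 14.3 (11.5 to 17.6). The genes that supply cytosolic acetyl-CoA had folds of 17.9 at ACLY, 12.4 at ACSS2 and 9.03 at SLC25A1, the last in a peak shared with CLTCL1.

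Of 3 related enzymes outside sterol synthesis, 1 had a start peak, against 58.2% of all coding genes. ACAT1, the mitochondrial thiolase, had a fold of 6.20 (4.73 to 7.99), below the interval of ACAT2 and below the median of all genes with a start peak. By the ends of the span alone, ACAT1 had no start peak. IDI2 and HMGCLL1 had none.

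All 12 regulators listed had a start peak, against 58.2% of all coding genes. Their median fold of 7.43 was below the 7.92 of all genes with a start peak. The highest was NFYA, which encodes an NF-Y subunit, at 11.2 in a peak shared with OARD1. SREBF2, the gene of SREBP-2, had 7.06 (5.13 to 9.48) in a peak shared with CCDC134. The SREBP pathway, taken as 7 of these genes, had a median of 7.22 and its highest fold, 10.8, at MBTPS2, a protease that releases SREBP from the membrane. Of 19 genes of fatty acid synthesis, elongation and desaturation, 12 had one (63.2%), a share near that of all coding genes, with a median fold of 8.97. Their folds ran from 5.42 at ACACB, in a peak shared with UNG, to 17.9 at ACLY. FASN had 17.6 and ACACA 16.1, so high folds were not particular to the mevalonate genes. The 7 without included the desaturase gene SCD5 and the elongase genes ELOVL2, ELOVL4 and ELOVL5. Also without one were FADS1 and FADS2, whose nearest summits lay 1856 and 1056 bp from a start. With a window of 2 kb, 14 of the 19 had a start peak, against 61.9% of all coding genes. The medians of these lists were lower than the 14.4 of the mevalonate genes, and the differences were not tested.

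**Figure D4:**
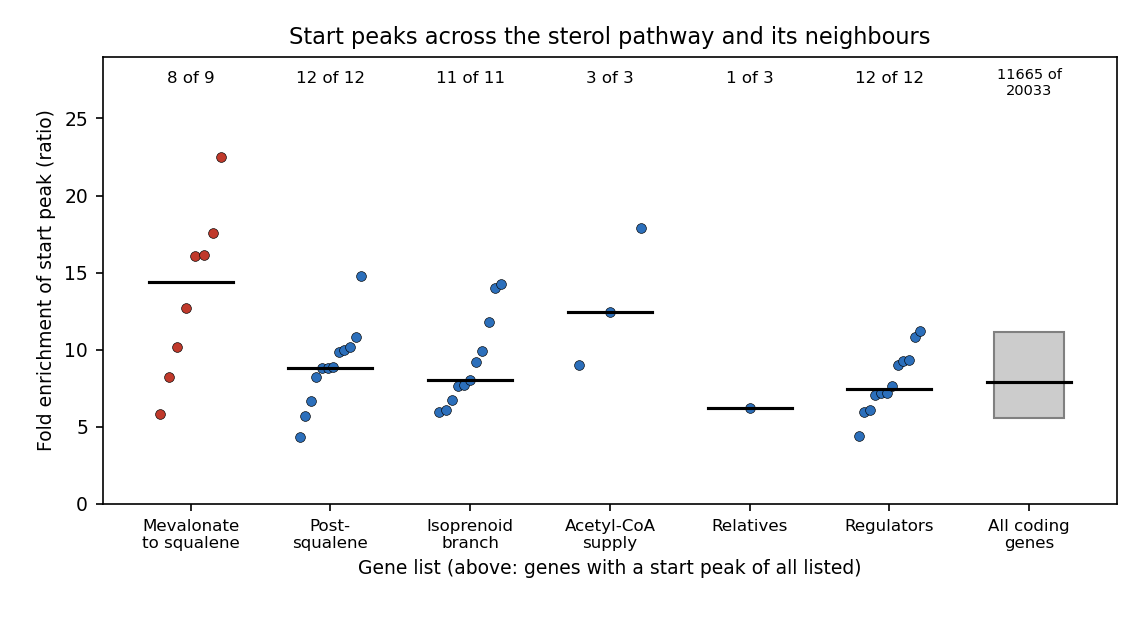
Fold enrichment of the start peak (ratio) of each gene in the mevalonate group (red) and in other lists of the pathway (blue), with black bars at the medians; the grey box spans the quartiles over all coding genes with a start peak, and the counts above give genes with a start peak of all listed. The mevalonate genes spread from 5.86 to 22.5 with a median of 14.4, and the post-squalene, isoprenoid and regulator lists have medians of 8.83, 8.06 and 7.43.

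The limit of 20 kb took in a peak 19829 bp below SQLE, with a fold of 2.09, and left out a peak 22319 bp above MVD, with a fold of 5.09. As a check on the cell type, 5 of 10 intestinal epithelial marker genes and 1 of 6 of other lineages had a start peak, against 58.2% of all genes. Many of these genes, CD3E among them, have no strand given, so either end was counted. The share over genes without a strand was 46.8%. The CD3E summit lay 884 bp from an end that may not be its start. Expression was not measured. The highest of the epithelial genes was KRT8, a keratin gene, at 12.4 (9.83 to 15.5), and the gene of another lineage was CD3E, a part of the T cell receptor complex, at 11.0 (8.70 to 13.7). These intervals overlapped.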

How the data were processed

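The file is 1 peak list, read as pooled over the Myc libraries. Tools named in the submitters' processing notes include MACS2 2.1.2 for peaks and BWA 0.7.15 for alignment, and the build is hg38. Settings, the control and the joining of replicates are not stated there. The authors deposited a fold enrichment (ratio) per peak, a −log10 p-value, a −log10 q-value and a score that follows that q-value. The lowest −log10 q was 1.30.

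Pileup and control level were solved from fold and −log10 p, which matched a whole pileup within 0.001 for 47016 nuclear peaks, and for 100% of 1999 simulated ones. The median summit had 29 fragments over a control level of 5.92. Fragments carry no molecular identifiers.

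Genes and starts came from RefSeq tables of GRCh38.p14, and 15842 of 20033 coding genes had a strand. Starts were those of the promoter table and the 5′ end of the span; positions count from 1. Members and lists were chosen with earlier results of these data known. All members, and from each other list the highest gene and up to 5 of those without a start peak, were to be named by rule; marker genes without one are given as counts only, and further genes were chosen after their values were seen. Some genes of these lists are not reported here and are in no count of a list. No test was run. Python 3.11.15 and scipy 1.17.1 were used.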

Additional observations from a re-analysis of the deposited data

How the results depend on the processing

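Across 222 alternative values (windows of 500 bp, 2 kb and 5 kb, either end of the gene, stricter limits on q and fold, whole intervals, and others), 207 stayed within 1.5 times a count or within the counting interval of a fold. Of the 222, 81 were start folds of members, and 79 of them stayed. A kept peak has the same fold in every setting, and a lost start peak gave no value. So this share cannot show how stable the folds are. Without peaks wider than 2 kb and the strongest 1%, 5 members kept a start peak, against 41.7% of all genes, and 3 had a fold of 10 or more (8.40% of all). That setting removes the start peaks of ACAT2, HMGCS1 and SQLE by construction, as it does some of post-squalene genes (7 left) and of fatty acid synthesis (7 left). It also removes the stronger start peak of IDI1, 2892 bp wide, so that IDI1 kept only its peak with a fold of 9.68. Without shared peaks, 5 members kept one (43.3% of all genes) and 3 had a fold of 10 or more (11.7% of all). With either end of the span, 7 members had a peak (56.4% of all genes), PMVK being lost, IDI1 fell to 9.68, 5 start peaks were shared, and 0 of the 3 related enzymes had one. The median fold of members ranged from 10.2 to 16.1. The number of peaks was 17 in the spans alone, 64 within 50 kb and 17 at a −log10 q of at least 10, against 39. Taking 1 peak per interval merged none. No paired analysis was possible because the list has no values per library, and for the same reason no library could be left out. Depth limits single weak peaks: at 23 fragments the interval of the weakest SQLE peak ran from 1.36 to 3.09.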
